A study of Mus musculus with 8 samples.

Results

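Trophoblast genes and simple keratins were examined in mouse embryonic stem cells (ESCs), as 10 genes chosen by symbol (Tead4, Cdx2, Gata3, Elf5, Eomes, Hand1, Plac1, Krt8, Krt18 and Krt19) among the 20278 genes listed for these libraries. All 10 were found. N33, an ESC line labelled C57BL/6 (C57BL/6J in the study's methods), was sequenced in 4 culture conditions with 2 replicates each, and LIF at 1000 U/ml was present in all of them. Cells labelled −F were grown in serum on gelatin without feeders, cells labelled F in serum on feeders, cells labelled F2i in serum on feeders with 2i, and cells labelled NB2i in serum-free N2B27 medium with 2i on poly-L-ornithine and laminin, without feeders. Serum was 20% fetal bovine serum. Feeders are mouse embryonic fibroblasts (MEFs) arrested with mitomycin C, and by the sample labels ESCs grown on them were taken off the feeders by 2 rounds of differential adherence. The name 2i stands for CHIR99021, an inhibitor of GSK3, and PD0325901, an inhibitor of MEK. In NB2i their doses were 3 µM and 1 µM, and those in F2i are not given in the sources used here. NB2i therefore differs from F2i in feeders, serum, basal medium and coating together, and these cannot be told apart. All samples come from 1 ESC line, and the study calls the replicates biological. Neither it nor the labels say whether they were separate cultures, so that p-values measure the spread between these samples, which may be technical.

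Trophectoderm is the outer epithelium of the blastocyst and gives rise to the trophoblast of the placenta, whereas ESCs derive from the inner cell mass. TEAD4, acting with the Hippo pathway cofactor YAP, switches on Cdx2 and Gata3 in the outer cells of the embryo. CDX2, ELF5 and EOMES then maintain trophoblast stem cells, HAND1 drives formation of trophoblast giant cells, and Plac1 encodes a placental protein. Keratin 8 (type II) pairs with the type I keratins 18 and 19 to build the filaments of simple epithelia, trophectoderm included. Expression in ESCs is not by itself a sign of trophoblast, because EOMES also acts in primitive streak and endoderm, HAND1 in mesoderm and amnion, and simple keratins in many epithelia.

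Krt8 and Krt18 are neighbours, and their starts are shown because the pair moved together in 3 conditions and apart in the other. In RefSeq annotation of GRCm38 (mm10), Krt8 lies at chr15:101996711-102004342 on the minus strand and Krt18 at chr15:102028216-102032026 on the plus strand. The genes point away from each other with 23873 bases between their ends. The windows below run from 250 bases before to 50 bases after the annotated start, at chr15:102004293-102004592 (minus strand) for Krt8 and chr15:102027966-102028265 (plus strand) for Krt18. Capitals mark a match to GATA or TATA.
Krt8: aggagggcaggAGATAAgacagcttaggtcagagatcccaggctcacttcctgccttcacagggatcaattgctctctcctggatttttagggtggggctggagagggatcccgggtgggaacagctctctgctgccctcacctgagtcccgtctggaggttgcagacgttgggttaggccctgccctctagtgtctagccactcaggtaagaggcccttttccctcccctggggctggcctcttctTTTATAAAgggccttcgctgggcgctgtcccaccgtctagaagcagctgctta
Krt18: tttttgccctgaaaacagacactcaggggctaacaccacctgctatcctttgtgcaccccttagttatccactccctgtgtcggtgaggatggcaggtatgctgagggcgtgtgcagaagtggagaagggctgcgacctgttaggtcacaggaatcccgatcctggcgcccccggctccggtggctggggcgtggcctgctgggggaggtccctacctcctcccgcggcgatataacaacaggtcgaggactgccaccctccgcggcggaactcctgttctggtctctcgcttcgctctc

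Promoters were searched on both strands for TEAD (GGAATG), AP-1 (TGANTCA), SP1 (GGGCGG), the TATA box (letters TATAAA), the GATA site (letters AGATAA) and TCF/LEF (ATCAAAG). Krt8 held AGATAA at bases 12 to 17, and TATA on both strands at bases 248 to 255, where the overlapping matches span the annotated start at base 251. Krt18 held none of the 6 motifs. Of 32851 promoters of the same length, 11.2% held GATA, 13.6% TATA, 14.7% TEAD, 7.81% AP-1, 35.7% SP1 and 3.73% TCF/LEF. Windows were found for 7 of the 10 genes, with 9 windows in all, and Tead4, Hand1 and Krt19 had none. Among the others, Gata3 held SP1 at bases 63 to 68 and 75 to 80, an Elf5 window held TEAD at bases 78 to 83, the other Elf5 window held TCF/LEF at bases 199 to 205, and the Plac1 windows held GATA in one and SP1 in the other. The windows of Cdx2 and Eomes held none of these letters. A match is a string of letters and not a bound site.

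Libraries were alike in depth, with 20129641 to 20664488 expected counts (median 20438563). The 6 ESC identity genes Pou5f1, Sox2, Nanog, Zfp42, Esrrb and Klf4 summed to 1246 to 1860 FPKM (expected counts normalized for transcript length and library depth) and each was at 1 FPKM or more in every library. Of these, 3 rose and 1 fell in F against −F, 4 rose in F2i against F, 2 rose and 3 fell in NB2i against F2i, and 5 rose and 1 fell in NB2i against −F (medians 0.24, 0.26, −0.04 and 0.73). Among all 15287 tested genes, 21.7% rose and 18.5% fell in the first comparison and 27.3% and 27.4% in the second. The shares were 33.3% and 30.8% in the third and 36.9% and 35.4% in the fourth. The 12 fibroblast genes summed to 10.8 and 10.9 FPKM in −F, 226.0 and 237 FPKM in F, 592 and 582 FPKM in F2i, and 5.36 and 5.12 FPKM in NB2i. These genes were thus higher in both feeder conditions, and each result against those conditions carries that difference. In F2i the sum was carried mainly by Col1a1 (244 FPKM) and Col1a2 (124 FPKM), and Dcn, Lum and Twist2 did not pass the test in F2i against F (log2 fold changes 0.15, 0.54 and −0.11). More fibroblast RNA and higher expression of these genes cannot be told apart. All 12 fibroblast genes rose in F against −F and all 12 fell in NB2i against F2i by edgeR's quasi-likelihood test at an adjusted p under 0.05 (medians 5.18 and −8.43), 9 rose in F2i against F, and 2 rose and 7 fell in NB2i against −F (medians 0.77 and −2.33). The shares of all tested genes are those given for the ESC identity genes. In bulk RNA, fewer cells of a type and less RNA per cell cannot be told apart.

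Simple keratins were the highest of the 10 genes in serum without feeders, and the 7 trophoblast genes lay below them. In −F, Krt18 averaged 76.2 ± 2.74 FPKM (SD, n = 2) and Krt8 59.4 ± 0.686 FPKM, above 94.9% and 93.3% of the 20278 genes. Of the trophoblast genes, Tead4 (8.2 FPKM), Hand1 (5.62 FPKM) and Eomes (3.02 FPKM) lay above 65.6%, 59.6% and 51.8% of genes there. Elf5, the lowest, averaged 0.055 FPKM in the same condition, above 18.9% of genes.

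**Figure D1:**
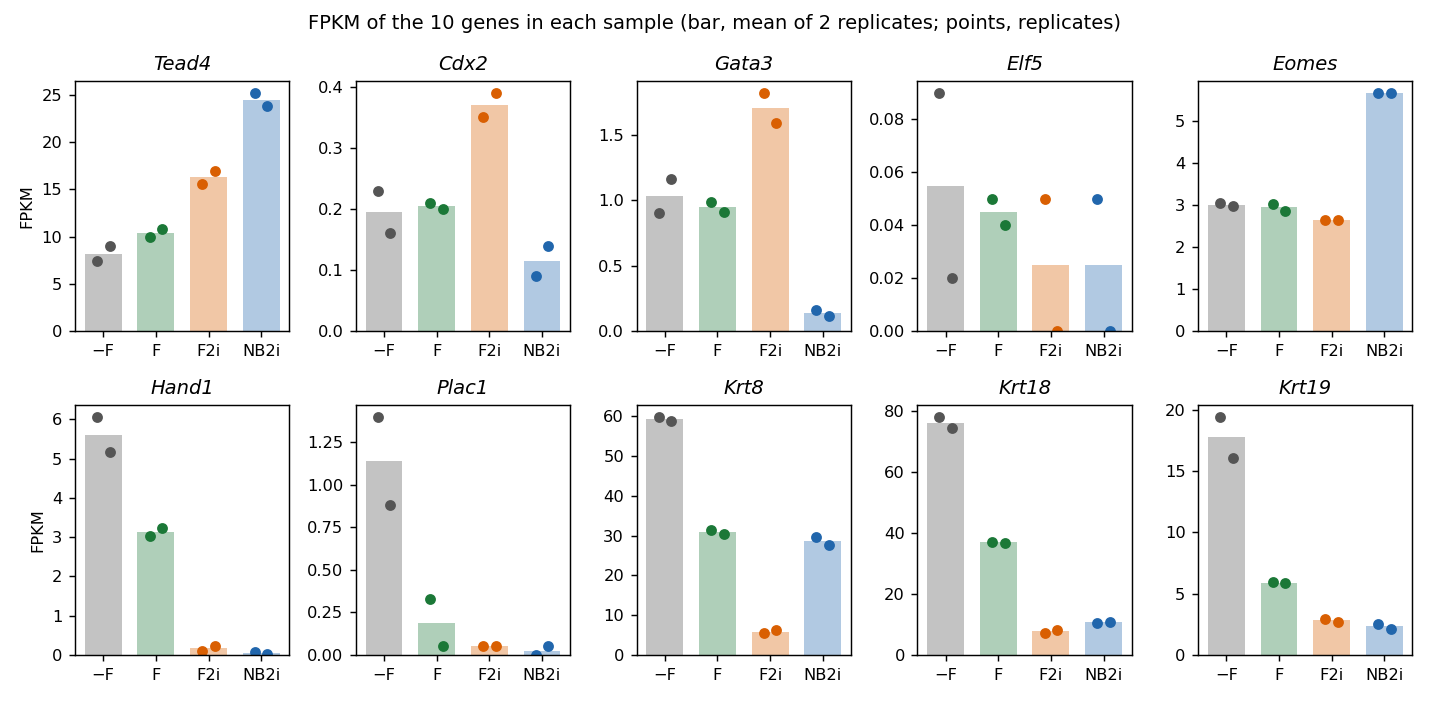
FPKM of each of the 10 genes in each sample by culture condition, with a linear vertical axis per gene that starts at 0. Bars are means of 2 replicates and points are the replicates. Hand1, Plac1 and the keratins are highest in −F, whereas Tead4 and Eomes are highest in NB2i and Cdx2 and Gata3 in F2i.

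Tead4, the upstream member of the group, rose at each step from −F to NB2i. Its level was 7.4 and 9.0 FPKM in −F, 9.94 and 10.84 FPKM in F, 15.58 and 17.00 FPKM in F2i, and 25.22 and 23.80 FPKM in NB2i. No neighbouring conditions overlapped. The log2 fold change was 0.37 ± 0.085 (SE) for F against −F (edgeR, adjusted p = 0.0015), 0.68 ± 0.078 for F2i against F (1.7e-07), 0.59 ± 0.071 for NB2i against F2i (2.3e-07) and 1.65 ± 0.077 for NB2i against −F (2.4e-14). The first step was not called by limma on log2(FPKM + 0.1) (adjusted p = 0.061), nor on log2(FPKM + 1) without a filter (0.067). Tead4 lies at chr6:128227143-128300813.

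Cdx2, the homeodomain factor that sets trophectoderm apart, was barely detected. The gene lies at chr5:147300900-147307249. It had 0.23 and 0.16 FPKM in −F, 0.21 and 0.20 FPKM in F, 0.35 and 0.39 FPKM in F2i, and 0.09 and 0.14 FPKM in NB2i, which correspond to 4 to 17 counts per library. F2i was above the other conditions in both replicates. From F2i to NB2i, Cdx2 fell by 1.67 on the log2 scale (SE 0.48, edgeR, adjusted p = 0.0045), but DESeq2 did not call it (adjusted p = 0.055). In F2i against F the log2 difference of 0.87 did not pass (adjusted p = 0.087, 95% interval −0.0051 to 1.75), and in F2i against −F it was 0.98 (adjusted p = 0.048). F, −F and NB2i, next to one another in the order of levels, did not differ by the test (adjusted p = 0.89 and 0.26).

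Gata3, a zinc finger factor that acts beside Cdx2, was likewise highest in F2i and lowest in NB2i, at a higher level. It lies at chr2:9857078-9887953. Its values were 0.90 and 1.16 FPKM in −F, 0.99 and 0.91 FPKM in F, 1.82 and 1.59 FPKM in F2i, and 0.16 and 0.12 FPKM in NB2i. The F2i pair lay above and the NB2i pair below all others, whereas −F and F overlapped. Gata3 rose by 0.88 ± 0.17 (log2) in F2i against F (adjusted p = 2.0e-04). It fell by 3.57 in NB2i against F2i (SE 0.26, adjusted p = 8.1e-11), a change of 11.9-fold, and fell by 2.79 in NB2i against −F (SE 0.28, adjusted p = 1.3e-08). The summed fibroblast genes were highest in F2i too, and their part in the Cdx2 and Gata3 levels there was not tested. In −F and NB2i, both without feeders, the 12 fibroblast genes summed to 10.9 and 10.8 FPKM and to 5.36 and 5.12 FPKM. Their part in the fall of Gata3 from −F to NB2i was not tested either.

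Elf5, a factor that in the embryo is held to the trophoblast lineage, was at the limit of detection. It lies at chr2:103412098-103450989. Counts were 4 and 1 in −F, 2 and 2 in F, 2 and 0 in F2i, and 2 and 0 in NB2i, and the gene was left out of the tests. A count of 0 allows up to 3 counts in a library, so differences between conditions were not detectable at this depth. NB2i had 0.397 times the counts of −F per total count, with an exact 95% interval of 0.0378 to 2.43 for counting error only.

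Eomes, a T-box factor of trophoblast stem cells and of the primitive streak, was higher in NB2i and did not differ by edgeR between the other conditions. It lies at chr9:118478186-118486132. It stood at 3.05 and 2.98 FPKM in −F, 3.03 and 2.87 FPKM in F, 2.66 and 2.66 FPKM in F2i, and 5.67 and 5.68 FPKM in NB2i. The NB2i replicates were above all others, and F2i lay a little below the rest. Eomes rose by 1.10 ± 0.083 (log2) in NB2i against F2i (edgeR, adjusted p = 1.9e-10) and by 0.98 ± 0.081 in NB2i against −F (4.7e-10). The differences between F and −F (−0.01, 95% interval −0.20 to 0.18) and between F2i and F (−0.12, −0.31 to 0.078) did not pass. The latter passed in limma on log2(FPKM + 0.1) (adjusted p = 0.041) and on log2(FPKM + 1) without a filter (0.033). Of the 9 streak and mesoderm genes tested beside it, 1 rose and 3 fell in NB2i against F2i, and 3 rose and 4 fell in NB2i against −F (medians −0.29 and −0.98). Of all tested genes, 33.3% rose and 30.8% fell in the first of these and 36.9% and 35.4% in the second, so these counts are near the background. In F against −F 2 rose and 1 fell, and in F2i against F 2 rose and 2 fell (medians 0.57 and −0.61). All tested genes rose and fell there in 21.7% and 18.5%, and in 27.3% and 27.4%. T (Brachyury), the defining streak gene, averaged 1.02 FPKM in NB2i, 0.445 FPKM in F2i and 0.36 FPKM in −F, and rose in both comparisons (adjusted p = 0.0013 and 9.7e-05). Cdx1, a caudal gene related to Cdx2, averaged 0.955 FPKM in −F, 4.27 FPKM in F, 10.2 FPKM in F2i and 8.77 FPKM in NB2i. In NB2i against −F the 3 that rose were T, Cdx1 and Gsc. The 4 that fell were Wnt3, Kdr, Tbx6 and Cdx4, each under 1 FPKM in both conditions (log2 fold changes −3.31, −2.89, −1.29 and −4.54).

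Hand1, at chr11:57828713-57832147, had the steepest fall of the 9 tested genes. Its level was 6.07 and 5.16 FPKM in −F, 3.02 and 3.24 FPKM in F, 0.10 and 0.23 FPKM in F2i, and 0.08 and 0.03 FPKM in NB2i. The −F and F replicates were well apart from each other and from both 2i conditions, which held 1 to 9 counts per library. Hand1 fell by 0.82 ± 0.14 (log2) in F against −F (edgeR, adjusted p = 6.2e-05) and fell by 4.14 ± 0.28 in F2i against F (3.4e-11). Hand1 passed the count filter through −F and F alone, which favoured in advance its falls from them to the 2i conditions. Between the feeder-free conditions, 4 counts in NB2i against 435 in −F gave a ratio of 0.00913 per total count (exact 95% counting interval 0.00248 to 0.0235). The difference between the 2i conditions was fragile. It was called at an adjusted p of 0.046 by edgeR, with 4 against 13 counts, a ratio of 0.303 and a counting interval of 0.0719 to 0.979. DESeq2 gave 0.075, and the log2 difference was −0.99 (adjusted p = 0.40) without F2i replicate 2 and −1.10 (0.25) without NB2i replicate 2. It was also lost without F replicate 1 or F replicate 2 (both 0.052). In F against −F, limma on log2(FPKM + 0.1) gave an adjusted p of 0.070.

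Plac1, at chrX:53069993-53240110, was detected mainly without feeders in serum. Values were 1.40 and 0.88 FPKM in −F, 0.33 and 0.05 FPKM in F, 0.05 and 0.05 FPKM in F2i, and 0.00 and 0.05 FPKM in NB2i. In counts these were 30 and 19, then 7 and 1, then 1 and 1, then 0 and 1. Both −F replicates lay above all other libraries. Plac1 fell in F against −F, where counts gave a ratio of 0.164 (exact 95% counting interval 0.0669 to 0.348) and edgeR an adjusted p of 7.8e-04. Leaving out F replicate 1 or 2 moved its log2 fold change from −2.55 to −4.43 or −1.76, and without either −F replicate the gene did not pass the count filter. It fell in NB2i against −F as well (ratio 0.0203, 0.000503 to 0.118, adjusted p = 7.6e-06). Plac1 passed the count filter through −F alone, which favoured its falls against −F in advance, so these p-values are not independent support for them. In F2i against F the ratio was 0.252 (0.0261 to 1.26) and the test did not pass (adjusted p = 0.17), nor in NB2i against F2i (0.66).

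Krt8 and Krt18 moved together over −F, F and F2i and separated in NB2i. Krt8 was at 59.87 and 58.90 FPKM in −F, 31.51 and 30.42 FPKM in F, 5.52 and 6.16 FPKM in F2i, and 29.67 and 27.69 FPKM in NB2i. Krt18 was at 78.15 and 74.28 FPKM in −F, 37.17 and 36.69 FPKM in F, 7.30 and 8.28 FPKM in F2i, and 10.53 and 10.74 FPKM in NB2i. From −F to F2i both fell together, and in NB2i Krt8 was back near its level in F while Krt18 was not. In F against −F, Krt8 fell by 0.92 ± 0.053 (log2, adjusted p = 8.4e-12) and Krt18 fell by 1.02 ± 0.055 (2.3e-12). In F2i against F, Krt8 fell by 2.37 ± 0.074 (8.7e-17) and Krt18 fell by 2.21 ± 0.075 (3.4e-16). These falls are 5.16-fold and 4.61-fold. The feeder gene sums were 226.0 and 237 FPKM in F and 592 and 582 FPKM in F2i, and their part in these falls was not tested.

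In NB2i against F2i, Krt8 rose 4.93-fold and Krt18 1.37-fold. Their log2 fold changes, 2.30 (95% interval 2.15 to 2.46, adjusted p = 9.3e-17) and 0.45 (0.27 to 0.64, 1.6e-04), had intervals that did not overlap. Against F, Krt8 in NB2i differed by −0.07 (−0.18 to 0.053, adjusted p = 0.30), whereas Krt18 fell by 1.75 ± 0.070 (1.6e-15). Against −F, the other condition without feeders, Krt8 fell by 0.98 ± 0.054 (3.4e-13) and Krt18 fell by 2.77 ± 0.066 (1.8e-19).

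The same separation was seen within each library, where depth cancels. Krt8 made up 49.8% and 50.7% of the Krt8 and Krt18 counts in −F, 52.4% and 51.8% in F, 49.5% and 49.1% in F2i, and 78.5% and 77.0% in NB2i. Exact 95% intervals ran from 44.5% to 54.5% over the first 3 conditions and from 74.6% to 80.6% in NB2i, and they cover counting error only. Per length, the Krt8 to Krt18 ratio of FPKM was 0.744 to 0.848 in the first 3 conditions and 2.82 and 2.58 in NB2i. An exact permutation test of 2 against 2 libraries cannot go below a p of 0.3333, so none is given. Of the 50-base stretches in Krt8 transcripts, 29.7% also occur in transcripts of another gene, mainly the pseudogene Krt8-ps, against 0.72% for Krt18. This share was 2.10% for Eomes, 1.74% for Gata3 and 0.27% for Tead4, and no stretch of the other 5 genes was shared. Krt8-ps is not among the genes listed for these libraries, and how reads from it were assigned could shift the level of Krt8.

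**Figure D2:**
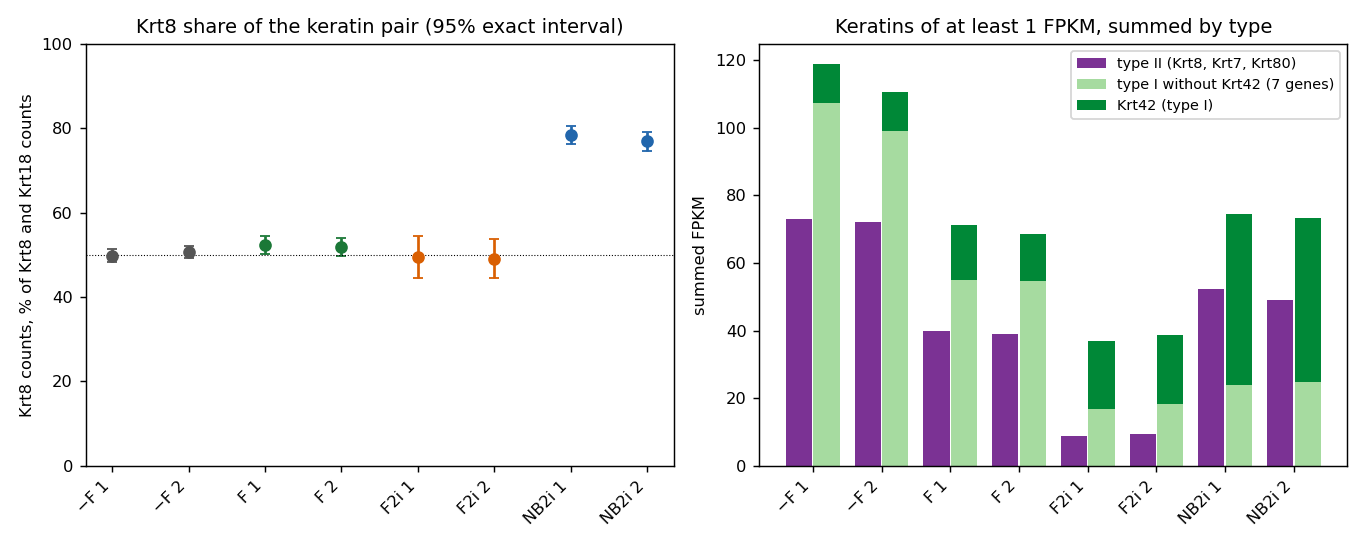
Left, Krt8 counts as a percentage of Krt8 and Krt18 counts in each library with exact 95% intervals; the NB2i libraries stand at 78.5% and 77.0% and the others between 49.1% and 52.4%. Right, summed FPKM in each library of the 3 type II keratins and, stacked, of the 8 type I keratins that reached 1 FPKM in some condition, with Krt42 shown apart from the other 7.

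Krt19, a type I keratin on chromosome 11 (chr11:100140810-100145926), did not follow Krt8 back. Its values were 19.44 and 16.07 FPKM in −F, 5.94 and 5.84 FPKM in F, 2.94 and 2.70 FPKM in F2i, and 2.54 and 2.12 FPKM in NB2i. The conditions were apart except that the 2i pairs lay side by side. Krt19 fell by 1.58 ± 0.11 (log2) in F against −F (adjusted p = 1.1e-10), fell by 0.99 ± 0.15 in F2i against F (8.1e-06) and fell by 2.88 ± 0.13 in NB2i against −F (9.8e-15). NB2i and F2i differed by −0.31 (95% interval −0.69 to 0.060, adjusted p = 0.13).

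From −F to F2i, where Krt8, Krt18 and Krt19 fell, other keratins took a growing share of keratin RNA. From F2i to NB2i that share changed little. Of 35 keratin genes listed, 11 reached 1 FPKM in some condition. The 3 members held 81.3% of all keratin FPKM in −F, 66.3% in F, 34.2% in F2i and 33.1% in NB2i. Krt42, a type I keratin that is named after its values were seen, had 11.55 and 11.61 FPKM in −F, 16.13 and 13.98 FPKM in F, 20.29 and 20.25 FPKM in F2i, and 50.40 and 48.63 FPKM in NB2i. It rose in all 4 comparisons, by 0.40, 0.47, 1.29 and 2.16 on the log2 scale (adjusted p from 4.2e-04 to 3.4e-17). Krt7, a type II keratin of simple epithelia, was at 12.86 and 13.23 FPKM in −F, 8.02 and 8.55 FPKM in F, 3.09 and 2.93 FPKM in F2i, and 20.01 and 18.38 FPKM in NB2i. Like Krt8 it fell with feeders and again with 2i and was higher in NB2i, by 2.68 ± 0.095 against F2i (adjusted p = 4.6e-16), and unlike Krt8 it was also above −F there (0.62 ± 0.073, 1.0e-07). Summed over the 11 genes, type II to type I FPKM was 0.613 and 0.652 in −F, 0.559 and 0.568 in F, 0.238 and 0.242 in F2i, and 0.701 and 0.669 in NB2i. Without Krt42 the ratio in NB2i was 2.17 and 1.98, against 0.511 to 0.729 in the other libraries.

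Of the genes beside Krt8 and Krt18, Tns2 fell with them from −F to F2i and the others did not. Krt4, Krt79 and Krt78, the keratins within 100 kb of Krt8 and Krt18, stayed at 0.15 FPKM or less in each condition's mean. Eif4b, a translation initiation factor gene on the other side, averaged 299 FPKM in −F, 301 FPKM in F, 280.2 FPKM in F2i and 239.96 FPKM in NB2i, and Spryd3 averaged 6.64 to 7.88 FPKM. Tns2, a focal adhesion gene, averaged 3.25, 2.38, 1.40 and 1.36 FPKM in the same order. It fell in F against −F (adjusted p = 0.0011) and in F2i against F (9.0e-06), and differed by −0.04 in NB2i against F2i (0.79). Around Krt19, Krt13, Krt15, Krt9 and Krt14 all averaged under 1 FPKM.

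Over the 9 tested genes, the count called was read against that of all 15287 genes tested. In F against −F, 1 rose (Tead4) and 5 fell, of which 3 also passed 2-fold, where 21.7% of all genes rose, 18.5% fell and 7.24% passed 2-fold in either direction. In F2i against F, 2 rose (Tead4, Gata3) and 4 fell (Hand1 and the keratins), 3 past 2-fold, against 27.3%, 27.4% and 13.4%. In NB2i against F2i, 4 rose (Tead4, Eomes, Krt8, Krt18) and 3 fell (Cdx2, Gata3, Hand1), 5 past 2-fold, against 33.3%, 30.8% and 19.3%. In NB2i against −F, 2 rose (Tead4, Eomes) and 6 fell, 6 past 2-fold, against 36.9%, 35.4% and 27.2%. In the remaining pairs, 8 of 9 were called in F2i against −F and 6 of 9 in NB2i against F, where 67.8% and 73.5% of all genes were called in either direction. The median log2 fold change of the 9 was −0.82, −0.99, −0.31 and −2.77 in the first 4 comparisons, and that of all genes lay between −0.0028 and 0.018. Plac1 reached 10 counts in −F alone, Hand1 in −F and F alone and Cdx2 in −F replicate 1 and F2i. Plac1 and Hand1 thus passed the filter through the conditions where they were high, and Cdx2 mainly through F2i. The filter favoured falls from those conditions, so these calls are not independent of it. The comparisons share samples and are not independent of one another.

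**Figure D3:**
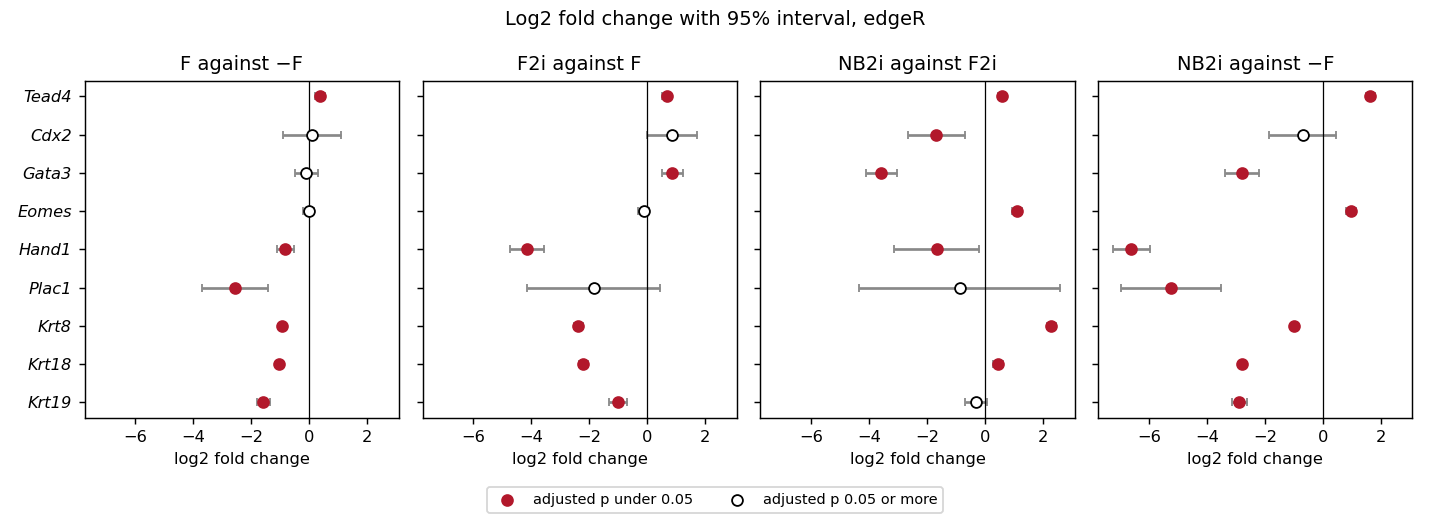
Log2 fold change of the 9 tested genes in 4 comparisons (edgeR), with 95% intervals as bars; filled points have an adjusted p under 0.05 and open points do not. Krt8 and Krt18 lie side by side in the first 2 panels and apart in the other 2, and Plac1 has the widest intervals.

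The other trophoblast genes are known from trophoblast stem cells and placenta. Of 20 genes, 18 were listed and 15 tested, and 1 rose and 6 fell in F against −F, 5 rose and 8 fell in F2i against F, 8 rose and 5 fell in NB2i against F2i, and 5 rose and 10 fell in NB2i against −F. Their median log2 fold changes were −0.30, −0.31, 0.15 and −1.04. Of all tested genes, 21.7% rose and 18.5% fell in the first comparison, 27.3% and 27.4% in the second, 33.3% and 30.8% in the third, and 36.9% and 35.4% in the fourth. Tpbpa and Prl2c2, which are defining markers of differentiated placental trophoblast, had 0 to 2 counts in any library.

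Peg10, an imprinted gene needed for the placenta, had 97.37 and 94.24 FPKM in −F, 73.27 and 80.15 FPKM in F, 7.03 and 6.65 FPKM in F2i, and 2.34 and 2.24 FPKM in NB2i. It fell by 5.32 ± 0.063 (log2) in NB2i against −F (edgeR, adjusted p = 6.4e-24), with each step called. Fgfr2, the receptor through which FGF4 sustains trophoblast stem cells, kept its level with feeders (5.72 FPKM in −F and 6.13 FPKM in F, adjusted p = 0.14) and fell to 1.74 FPKM in F2i and 0.335 FPKM in NB2i (adjusted p = 1.1e-13 and 1.0e-11). Dlx3, a homeobox gene of the placenta, averaged 2.06, 0.695, 0.37 and 0.13 FPKM in −F, F, F2i and NB2i and was called lower at each step. In NB2i against −F, 10 of these genes fell and 5 rose. Those that rose were Tfap2a, Gata2, Tfeb, Ets2 and Tfap2c (log2 fold changes 2.63, 2.29, 1.70, 0.76 and 0.21). Gata2 averaged 2.04 FPKM in −F and 9.49 FPKM in NB2i.

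Rhox9 and Rhox6, X-linked homeobox genes expressed in placenta, behaved like Krt8. Rhox9 had 25.28 and 21.09 FPKM in −F, 13.34 and 12.28 FPKM in F, 1.79 and 1.39 FPKM in F2i, and 11.09 and 11.53 FPKM in NB2i. It rose by 2.82 ± 0.17 (log2) in NB2i against F2i (adjusted p = 4.5e-12), and Rhox6 by 1.84 ± 0.15 (8.4e-10). Their expected counts were often not whole, so reads were divided between related genes and the level of each is uncertain. Cited1, a transcriptional coregulator, averaged 2.80 FPKM in F2i and 0.715 FPKM in NB2i and fell (adjusted p = 2.7e-05).

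**Figure D4:**
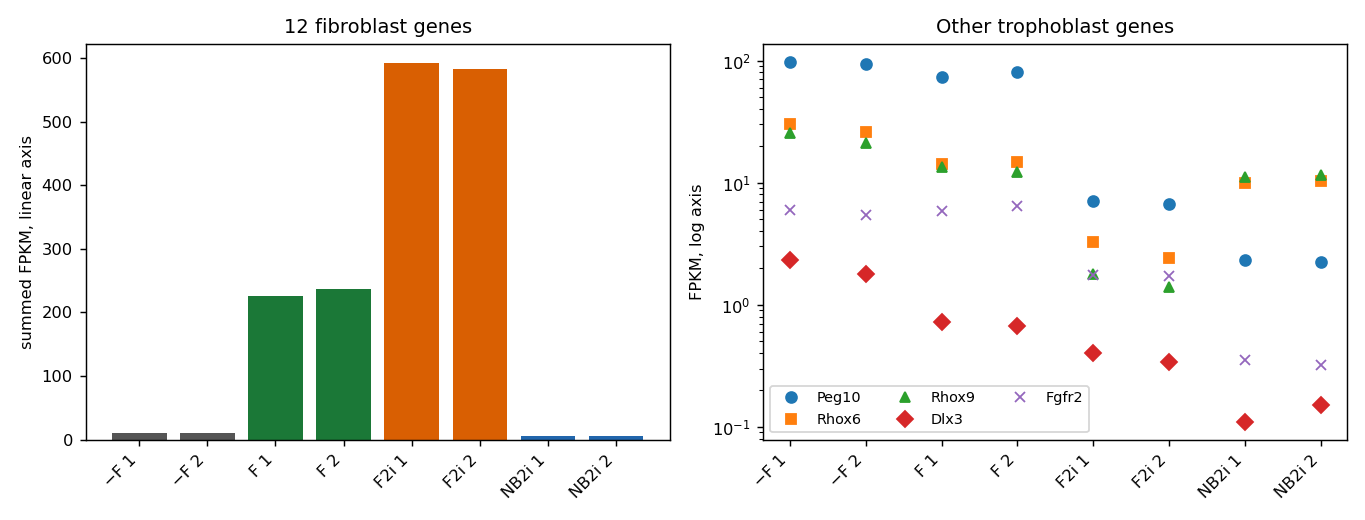
Left, summed FPKM of 12 fibroblast genes in each library, 5.12 to 10.9 in −F and NB2i, 226.0 and 237 in F and 582 and 592 in F2i. Right, FPKM on a log axis of 5 other trophoblast genes in each library; Rhox6 and Rhox9 are lowest in F2i, and Peg10, Dlx3 and Fgfr2 are lowest in NB2i.

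Hippo and TEAD genes are the pathway in which TEAD4 acts, and the list includes the related Tead1, Tead2 and Tead3. Of 15 tested, 7 rose and 2 fell in F against −F, 6 rose and 4 fell in F2i against F, 2 rose and 9 fell in NB2i against F2i, and 5 rose and 6 fell in NB2i against −F. Their medians were 0.15, 0.0056, −0.31 and 0.015. In F2i against F (27.3% and 27.4% of all tested genes) and in NB2i against −F (36.9% and 35.4%) the counts are near the background, and in F against −F and NB2i against F2i the shares of all genes were 21.7% and 18.5%, and 33.3% and 30.8%. Lats2, a kinase that keeps YAP out of the nucleus, averaged 1.33 FPKM in −F, 2.60 FPKM in F, 5.63 FPKM in F2i and 0.54 FPKM in NB2i, and fell by 3.34 ± 0.11 (log2) in NB2i against F2i (adjusted p = 1.5e-16). Amotl2, an angiomotin that binds YAP, averaged 29.4, 63.4, 67.9 and 27.9 FPKM in that order and fell by 1.28 ± 0.042 from F2i to NB2i (9.9e-17). Both were high where the 12 fibroblast genes were high, and the part of feeder RNA in them was not tested. Amot, another angiomotin, averaged 2.56 FPKM in −F and 0.565 FPKM in NB2i and fell between these feeder-free conditions (adjusted p = 3.0e-12). Vgll4, a TEAD cofactor, averaged 2.98 and 6.45 FPKM there and rose (7.7e-08). Yap1, which encodes YAP, averaged 54.0, 55.4, 54.0 and 53.4 FPKM in −F, F, F2i and NB2i and was called in none of these comparisons. Wwtr1, another gene of this list, averaged 9.1, 13.3, 19.7 and 15.8 FPKM in that order and was called in each of them. Tead1, Tead2 and Tead3 fell in NB2i against F2i, where Tead4 rose (log2 fold changes −0.15, −0.32 and −0.34).

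Epithelial junction genes and further keratins are the usual company of Krt8 and Krt18. Of 18 genes, 15 were tested, and 2 rose and 9 fell in F against −F, 3 rose and 9 fell in F2i against F, 9 rose and 5 fell in NB2i against F2i, and 7 rose and 8 fell in NB2i against −F. Medians were −0.36, −0.55, 0.40 and −0.67, and all tested genes rose and fell in 21.7% and 18.5%, 27.3% and 27.4%, 33.3% and 30.8%, and 36.9% and 35.4%. Cldn6, a tight junction claudin, averaged 103, 49.6, 6.81 and 7.93 FPKM in −F, F, F2i and NB2i, a course like that of Krt18. Cldn7, a related claudin, averaged 45.1, 25.2, 4.54 and 26.6 FPKM and rose by 2.57 ± 0.099 (log2) in NB2i against F2i (adjusted p = 2.0e-15), a course like that of Krt8. Epcam, an epithelial adhesion molecule that ESCs express, averaged 174 FPKM in −F and 37.1 FPKM in NB2i and fell (1.4e-20). The 7 genes that rose in NB2i against −F, where 8 fell, were Cdh1, Jup, Dsp, Cldn4, Krt7, Krt17 and Krt10. Cdh1 averaged 149 FPKM in −F and 192 FPKM in NB2i (log2 fold change 0.43, edgeR, adjusted p = 5.1e-09). Dsp and Pkp2, which encode desmosome proteins, were among the genes with the largest changes. In F against −F, Dsp fell by 1.11 ± 0.087 (1.3e-09) and in NB2i against F2i it rose by 0.78 ± 0.077 (1.4e-08). Dsp also rose in F2i against F, where Krt8 fell, by 0.82 ± 0.090 (edgeR, adjusted p = 8.7e-08). In NB2i against −F, Dsp rose by 0.50 ± 0.075 (3.7e-06) and Pkp2 fell by 1.89 ± 0.062 (4.1e-17).

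Primitive and visceral endoderm is another epithelium that expresses Krt8 and Krt18. Of 9 genes tested of 12, 7 rose and 1 fell in F against −F, 7 fell and 2 were not called in F2i against F, 1 rose and 5 fell in NB2i against F2i, and 1 rose and 5 fell in NB2i against −F. Medians were 1.33, −1.37, −1.66 and −1.99, and the shares of all tested genes are those given for the junction genes. The 12 genes summed to 14.4 and 12.1 FPKM in −F, 19.3 and 20.4 FPKM in F, 6.73 and 6.25 FPKM in F2i, and 3.28 and 3.53 FPKM in NB2i. Their sum was thus highest in F and lowest in NB2i. The part of endoderm cells in the keratin levels was not tested. Gata6, a defining endoderm factor, averaged 0.60 FPKM in −F and 1.91 FPKM in F and rose (adjusted p = 2.8e-07). Lrp2, an endocytic receptor of visceral endoderm, averaged 5.75, 3.79, 1.20 and 0.245 FPKM in −F, F, F2i and NB2i and fell at each step, as Amn, which encodes a partner of cubilin, did from F on (2.08, 1.82, 0.555 and 0.17 FPKM).

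Likeness of pattern was described by Pearson's r of log2(FPKM + 1) over the 8 libraries, which come from 4 conditions, among 2422 or 2423 genes. Krt8 was most like Ap1m2 (r = 0.997), which encodes a subunit of an epithelial sorting adaptor, Naprt (0.996) and Arhgef16 (0.994). Krt18 was most like Syce2 (0.997), Cldn6 (0.996) and Sfmbt2 (0.995), and Krt19 like Snhg14 (0.995), Marveld2 (0.994) and Rbbp8nl (0.993). Hand1 was followed by Ydjc (0.998), Phf19 (0.997) and Cdkn1c (0.997). Tead4 was followed by Chit1, Man2b2 and Ttyh2 (0.995 to 0.999), and Eomes by Adgrg1, Ccdc28b and Mal (0.993 to 0.997). For Gata3 the nearest were Dzip1l, Tmem45a and Shisa7 (0.985 to 0.990), for Cdx2 Mex3b, Cited4 and H2-Eb1 (0.963 to 0.972) and for Plac1 Adarb2, Pbld1 and Snhg14 (0.958 to 0.972). Among the members themselves, Hand1 was nearest to Krt18 (r = 0.984) and Plac1 to Krt19 (0.944), while Gata3 and Eomes ran opposite to each other (−0.953). Krt8 and Krt18 had an r of 0.825.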

How the data were processed

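Poly-A RNA of 8 samples was sequenced on a BGISEQ-500 as single reads of 50 bases. The authors used Bowtie2 on mm10 for mapping and RSEM for quantification, whose versions are not given in the sources used here. The expected counts deposited by the authors are RSEM's unnormalized estimates, of which 29.8% hold a fraction of a read. FPKM, also deposited by the authors, divides them by transcript length and depth. A gene that a sample's file does not list was set to 0.

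After rounding, edgeR 4.0.16 (R 4.3.3, glmQLFit and glmQLFTest, TMM factors 0.9774 to 1.028) fitted all samples together, without a block, on the 15287 of 20278 genes that had 10 counts or more in 2 samples or more, with Benjamini-Hochberg adjustment over all genes tested. The residual degrees of freedom were 4 and the biological coefficient of variation 3.25%, so small p-values rest on the model. On data simulated for F against −F with 15287 genes, 197 of 200 planted changes were recovered with 5 false calls. Changes were planted only in genes of higher mean counts, and the same spread was set for every gene. Recovery for genes of few counts, such as Cdx2 and Plac1, was therefore not measured. Replicates differed by more than sampling noise (chi-square per degree of freedom 1.89 to 3.71) and were kept apart.

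The 10 genes and the gene lists were chosen with earlier results of these data known. From each list, up to 3 called genes with the largest change are named per comparison, provided that the higher group averaged 1 FPKM or more. Not all of them are named, and more list genes appear (Tpbpa, Prl2c2, Wnt3, Kdr, Tbx6, Cdx4 and Yap1, and named genes in their other comparisons). Further ones are Tfap2a, Gata2, Tfeb, Ets2, Tfap2c, Wwtr1, Tead1, Tead2, Tead3, Cdh1, Cldn4, Jup, Krt17 and Krt10. Keratins outside the lists and neighbouring genes within 100 kb were added after values were seen. Likeness was searched among genes that averaged 1 FPKM or more in some condition and had an SD of at least 0.5 in log2(FPKM + 1). Sequences and coordinates are from RefSeq on GRCm38.p6, and shared 50-base stretches from GENCODE transcripts. Alternatives were DESeq2 1.42.0, its size factors in edgeR, other count filters, only the groups compared, the replicate number as a block, each library left out, and limma 3.58.1 with a pseudocount of 1 or 0.1 added to FPKM before log2, keeping genes that reach 0.5 FPKM in 2 samples (and, with 1, also all genes). These scales understate changes of low genes.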

Additional observations from a re-analysis of the deposited data

How the results depend on the processing

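Over 36 log2 fold changes, 575 values were computed under alternatives, and 553 kept their direction and their side of the threshold, 13 lost the call, 4 gained it and 5 changed sign. The sign changes were all in differences that had not passed. With 1 library left out, F against −F ranged from −0.12 to 0.38 for Cdx2, from −0.27 to 0.11 for Gata3 and from −0.0452 to 0.0237 for Eomes (0.0059 without −F replicate 1), and F2i against F from −2.62 to 0.0503 for Plac1. Of the 13 lost calls, 9 concern Hand1 in NB2i against F2i.

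With at least 10 counts required in every sample, members called were 4 instead of 6 in F against −F and in F2i against F, 4 instead of 7 in NB2i against F2i and 5 instead of 8 in NB2i against −F, since Cdx2, Gata3, Hand1 and Plac1, which fall under 10 counts in some sample, were then not tested. Limma on log2(FPKM + 0.1) called 4, 7, 5 and 8 in these comparisons. Members called with 1 library left out were 5 to 6 in F against −F, 6 to 7 in F2i against F, 6 to 7 in NB2i against F2i and 7 to 8 in NB2i against −F. Replicate numbers do not pair the samples (r of deviations −0.0637 to 0.0702), and with the replicate block the members called were 6, 6, 7 and 8 in the 4 comparisons, as without it. A library left alone in its condition is assumed to vary like the others. Genes of under 20 counts per library (Cdx2, Elf5, Hand1 in 2i, Gata3 in NB2i, and Plac1 outside −F) are limited by depth.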
